A study of Mus musculus with 5 samples.

Results

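The pancreatic elastase genes Cela1, Cela2a, Cela3a and Cela3b and the chymotrypsin C gene Ctrc lie at 3 loci that carried dense groups of Gata6 peaks in the mouse pancreas. Chromatin immunoprecipitation with an antibody specific for Gata6 was followed by sequencing (ChIP-seq) in the pancreas of wild-type C57BL/6 mice. The 4 Gata6 libraries came in equal number from animals of 5 and 14 weeks of age (2 each), and their input DNA was pooled into 1 further library as the background sample. The whole pancreas was used, which holds acinar, duct, islet and other cells. The processed result was 1 list of 7737 peak positions on the mouse build mm9, with no score and no value per library, so the ages could not be compared and no replicate spread could be given.

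The loci were 3 windows of mm9 chosen from where peaks of this same list were dense, around genes of one enzyme family. They were chromosome 15 from 100450001 to 100600000 (Cela1, 150 kb), chromosome 4 from 141340001 to 141440000 (Cela2a and Ctrc, 100 kb) and chromosome 4 from 136930001 to 137020000 (Cela3a and Cela3b, 90 kb). A peak belonged to a window when its midpoint lay in it, which gave 41 of the 7737 peaks, with 15, 16 and 10 in the windows in that order. Because peak positions chose the windows, the counts, widths and gaps in them are described without a test. The gene names of the windows were given with the choice and could not be checked against peak positions, since no mm9 annotation was used here. No peak is therefore assigned to an exon, intron or start site. The gene table at hand, of the build GRCm38.p6, placed all 5 genes on the same chromosomes as their windows, with Cela2a next to Ctrc and Cela3a next to Cela3b.

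Acinar cells of the pancreas make digestive enzymes as inactive precursors and secrete them toward the gut. Elastases and chymotrypsins are serine proteases of this mixture. Chymotrypsin C also acts on other precursors and is known for degrading trypsinogen, which protects the pancreas from early trypsin activity. The mouse gene Ctrc, however, is annotated as a transcribed pseudogene in GRCm38.p6. Whether these mice make an active chymotrypsin C was not examined. Acinar enzyme genes are known targets of the PTF1 complex, which binds an E-box next to a TC-box. Gata6 is a zinc-finger factor that recognises GATA sequences, is expressed in acinar cells and takes part in their differentiation and upkeep.

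In RefSeq's GRCm38.p6 tables, Cela1 lay between the protein-coding genes Bin2 and Galnt6, Cela2a and Ctrc between Casp9 and Efhd2, and Cela3a and Cela3b between Cdc42 and 1700013G24Rik. Ctrc was annotated there as a transcribed pseudogene and the 4 elastase genes as protein coding. The promoter table held the 4 elastase genes, all on the minus strand, and did not hold Ctrc. The 250 bases before each start site are shown because they hold the letters that GATA factors recognise. They are printed 5′ to 3′ on the gene's strand, with capitals for AGATAA or TGATAA read on either strand. Their GRCm38.p6 positions are chr15:100687921-100688170 for Cela1, chr4:141826006-141826255 for Cela2a, chr4:137409792-137410041 for Cela3a and chr4:137430521-137430770 for Cela3b, all on the minus strand, and cannot be set against the mm9 positions of the peaks.
Cela1: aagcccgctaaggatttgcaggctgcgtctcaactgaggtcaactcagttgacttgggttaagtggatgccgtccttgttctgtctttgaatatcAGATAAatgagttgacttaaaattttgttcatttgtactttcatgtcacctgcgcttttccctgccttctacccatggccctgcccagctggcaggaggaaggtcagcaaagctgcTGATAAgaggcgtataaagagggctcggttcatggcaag
Cela2a: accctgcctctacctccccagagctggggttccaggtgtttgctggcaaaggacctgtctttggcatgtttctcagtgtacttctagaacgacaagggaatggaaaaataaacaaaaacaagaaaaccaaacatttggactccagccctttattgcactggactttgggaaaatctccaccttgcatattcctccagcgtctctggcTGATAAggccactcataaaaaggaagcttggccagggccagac
Cela3a: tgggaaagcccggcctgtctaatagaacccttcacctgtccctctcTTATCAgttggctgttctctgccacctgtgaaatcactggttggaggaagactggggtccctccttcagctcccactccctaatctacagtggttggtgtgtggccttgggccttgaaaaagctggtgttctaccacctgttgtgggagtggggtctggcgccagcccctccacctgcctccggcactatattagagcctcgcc
Cela3b: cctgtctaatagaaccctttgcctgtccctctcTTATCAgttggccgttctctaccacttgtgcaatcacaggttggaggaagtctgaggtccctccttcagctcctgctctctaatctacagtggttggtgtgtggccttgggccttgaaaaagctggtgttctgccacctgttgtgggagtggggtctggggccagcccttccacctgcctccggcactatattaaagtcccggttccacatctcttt

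TGATAA occurred in all 4 elastase promoters, where 7.94% of the 32851 promoters of the table held it on either strand. The Cela3a and Cela3b promoters were 83.3% identical, so motifs that both hold are not independent cases. Its base nearest the start site lay 34 bases before it in Cela1 and 38 bases before it in Cela2a, on the gene's strand in both. In Cela3a and Cela3b it was on the opposite strand and farther away, at 199 and 212 bases. Cela1 also held AGATAA at 150 bases, a motif found in 9.99% of promoters. The other searched GATA forms, AGATAG (7.71% of promoters) and TGATAG (6.35%), were in none of the 4, and at least 1 of the 4 forms was in 26.5% of all promoters. These matches describe letters of the sequence and do not show binding.

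The E-box CACCTG, the first part of a PTF1 site, was also in all 4 elastase promoters, against 17.2% of all promoters. Cela3a held it 4 times, at 28, 65, 177 and 213 bases before the start, and 0.247% of promoters held it at least 3 times. Cela3b held it at 41 and 78 bases, Cela1 at 104 and Cela2a at 213 on the opposite strand. The TC-box letters TTTCCC were in 3 of 4 (21.9% of promoters), at 94 bases in Cela1, next to its E-box at 104, and on the opposite strand at 79 bases in Cela2a and 244 in Cela3a. The TATA box TATAAA (12.4% of promoters), at 22 bases, and AAGGTCA (4.08%), the letters bound by the acinar factor Nr5a2, at 50 bases, were in Cela1 alone. The forkhead motif TGTTTAC (3.17%) was in none. The promoters of the neighbouring genes Cela3a and Cela3b were 83.3% identical over 263 aligned columns, and the other 5 pairs were 46.3% to 49.7% identical in the same global alignment.

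At Cela1, Gata6 peaks formed a nearly continuous block. The window held 15 peaks that covered 21902 bp, or 14.6% of it, where peaks covered 0.239% of the 19 autosomes and X. A pair stood apart at 100461298 to 100462565 and 100462697 to 100464159, with widths of 1268 and 1463 bp, and 39771 bp without a peak followed. The other 13 peaks lay between 100503931 and 100529135. From left to right, the first 3 of them measured 916, 1126 and 872 bp and ended at 100506994. They were set 41 and 109 bp apart.

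The next 4 Cela1 peaks became wider toward the widest of the locus. Peaks of 350 and 418 bp at 100507687 and 100508186 were its narrowest, and a peak of 1454 bp began at 100508814. Only 39 bp after it, the peak at 100510307 to 100513803 spanned 3497 bp and ranked 9th in width among all 7737. Peaks of 1896 bp, at 100514398 to 100516293, and 2627 bp, at 100516336 to 100518962, closed this part of the block, 42 bp from each other. The shortest stretch with at least 50% of the covered sequence of the window took in 7 peaks from 100506123 to 100518962, a length of 12840 bp.

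After 3084 bp without a peak, the Cela1 block ended in 4 further peaks. They were 1349 bp wide at 100522047, 755 bp at 100523938, 680 bp at 100524869 and 3231 bp at 100525905 to 100529135. The last ranked 13th in width in the whole list. With distances to window edges taken from peak midpoints here and at the other loci, the next peak on the chromosome, at 100969634, lay 370 kb past the window's right edge, while the nearest on the left, at 100403814, was 45.9 kb outside it. The peaks just inside the edges were 11.9 and 72.5 kb from them.

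At Cela2a and Ctrc, 16 peaks were spread in several clumps over 71814 bp. They covered 20718 bp, or 20.7% of the window, the highest share of the 3 windows, which differ in size. Cela1 had more covered sequence, 21902 bp, and a 100 kb window on chromosome 15 (100430001 to 100530000) also held all of it. In the Cela2a and Ctrc window, a lone peak of 424 bp at 141352012 was followed by 6 peaks from 141369407 to 141384569. The first, of 2209 bp, stood 16 bp from the second, which at 141371632 to 141375626 spanned 3995 bp and was the 3rd widest of the list. The remaining 4 of this clump measured 2097, 469, 1109 and 1145 bp. These 6 peaks were also the shortest stretch with at least 50% of the covered sequence, with 11024 bp covered in 15163 bp.

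The right side of the Cela2a and Ctrc window lacked the widest peaks, though the narrowest, of 424 and 469 bp, were on the left. A peak of 1236 bp at 141395529 was followed by 3 close ones of 1250, 785 and 742 bp that ended at 141402472, and by 1 of 833 bp at 141410802. The last clump, at 141416284 to 141423825, held 4 peaks of 1723, 541, 1163 and 997 bp. None of these 9 peaks reached 2000 bp, while 3 of the 6 in the left clump did. The peaks nearest to the edges outside the window lay 183 kb to the left and 45.3 kb to the right, and those just inside lay 12.2 and 16.7 kb from them.

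At Cela3a and Cela3b the peaks were fewer, of more even width and, by median gap, farther apart than at the other loci. The window held 10 peaks that covered 9713 bp, or 10.8% of it. From left to right their widths were 1054 bp at 136943804, 998 bp at 136952597 and 642 bp at 136965400. Then came 1384 bp at 136973018, 533 bp at 136975370 and 1111 bp at 136980217. The last 4 measured 1334 bp at 136986033, 903 bp at 136988542, 1011 bp at 136992986 and 743 bp at 137017755. The widest was thus less wide than the widest of the other loci, and the shortest stretch with at least 50% of the covered sequence, from 136973018 to 136989444, held 5 peaks in 16427 bp. The nearest midpoints outside this window lay 278 kb to the left and 221 kb to the right. The last midpoint inside lay 1.87 kb from the right edge, and the first 14.3 kb from the left edge.

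**Figure D1:**
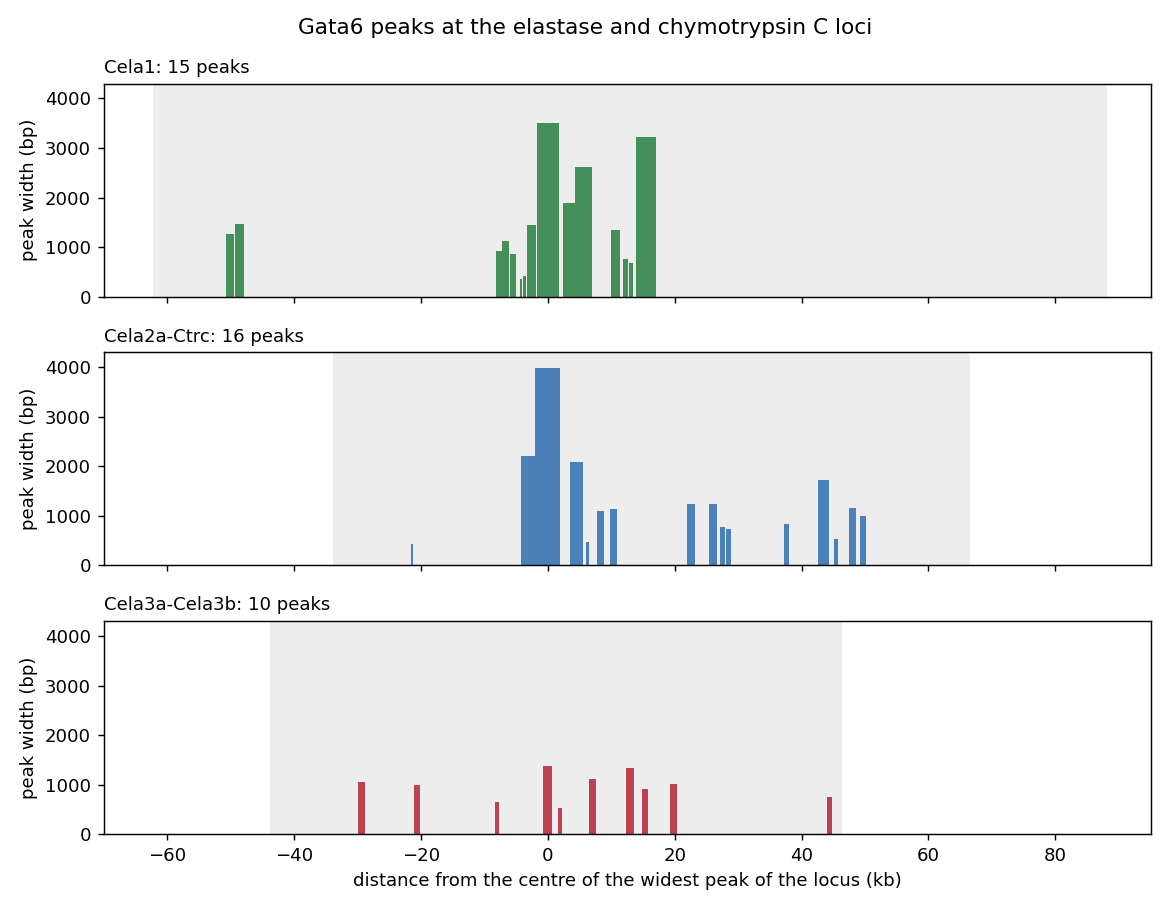
Each bar is 1 Gata6 peak, drawn from its start to its end on a horizontal axis of distance in kb from the centre of the widest peak of the locus, with its width in bp as its height. Grey marks the window. The Cela1 peaks form a block of 13 with a pair apart, the 16 Cela2a-Ctrc peaks form clumps led by the widest peak of 3995 bp, and the 10 Cela3a-Cela3b peaks are separate and at most 1384 bp wide.

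Peaks of all 3 loci were on the wide side of the list. The median width was 1268 bp at Cela1 (350 to 3497 bp), 1127 bp at Cela2a and Ctrc (424 to 3995 bp) and 1004.5 bp at Cela3a and Cela3b (533 to 1384 bp), against 728 bp over all peaks (interquartile range 533 to 996 bp). At least 1000 bp was reached by 9 of 15, 9 of 16 and 5 of 10 peaks, together 23 of 41 or 56.1%, where 24.7% of all peaks did. Only at Cela1 and at Cela2a and Ctrc were there peaks of 2000 bp or more, 6 of the 128 in the list. The ranges of the 3 loci overlapped, and narrow peaks occurred in each. With 1500 bp as the limit in place of 1000, the counts were 4, 4 and 0.

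The loci differed more in the median gap between the facing edges of neighbouring peaks than in median width, though the ranges of gaps overlapped. The median gap was 193 bp at Cela1, 1185 bp at Cela2a and Ctrc and 4705 bp at Cela3a and Cela3b, against 78.2 kb between neighbours of the whole list. Gaps under 2 kb made up 12 of 14, 10 of 15 and 2 of 9, or 63.2% of the 38 gaps, where 6.91% of all 7713 gaps were that short. The library protocol took DNA fractions of 50 to 250 bp. Gaps under 250 bp, shorter than the longest such fragments, numbered 8 of 14 at Cela1, 2 of 15 at Cela2a and Ctrc and 0 of 9 at Cela3a and Cela3b, where the smallest was 968 bp. Over the list 2.39% of gaps were under 250 bp. Whether such neighbours are separate binding sites or 1 enriched region reported in pieces was not tested.

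**Figure D2:**
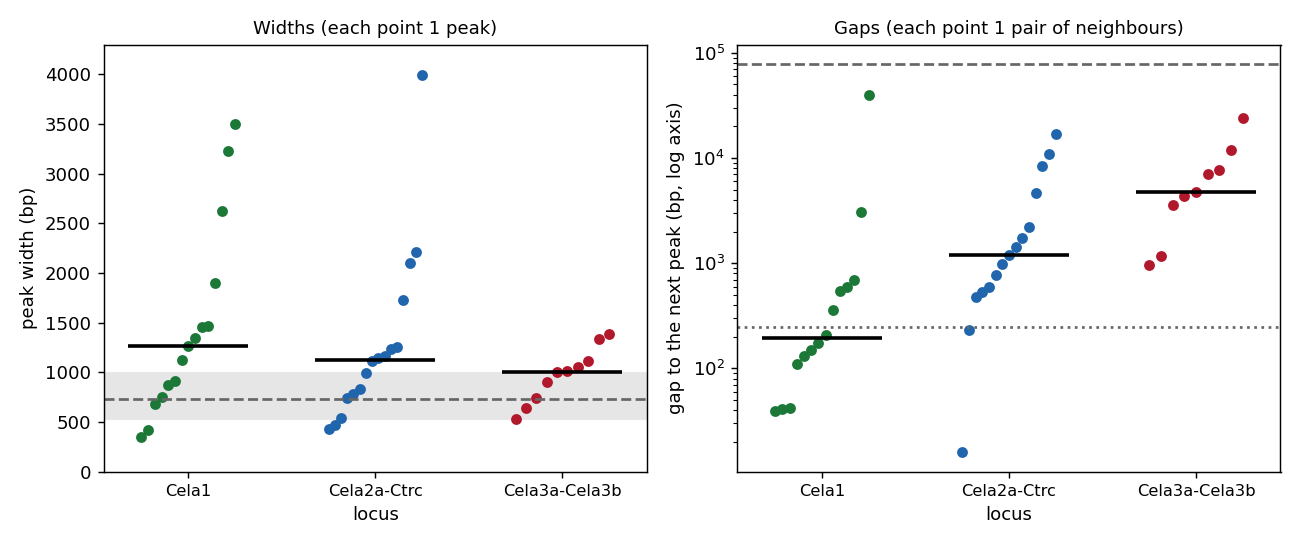
The left panel gives the width in bp of each peak and the right panel the gap in bp (log axis) between each pair of neighbours, by locus, with black bars for medians. The grey band and dashed line on the left are the interquartile range and median (728 bp) of all peaks. On the right the dashed line is the median gap of the list (78.2 kb) and the dotted line 250 bp. Median gaps rise from 193 bp at Cela1 to 4705 bp at Cela3a-Cela3b while median widths differ less.

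Joining peaks whose edges lay within 500 bp turned the 15 Cela1 peaks into 6 regions. The longest, at 100507687 to 100513803, measured 6117 bp and ranked 6th among the 7474 regions of the genome so made, and those of 5198 and 4565 bp ranked 9th and 11th. At Cela2a and Ctrc 13 regions resulted, of which the region of the 2 widest peaks, 141369407 to 141375626, measured 6220 bp and ranked 5th. At Cela3a and Cela3b no peaks joined. Joining within 2 kb left 3, 6 and 8 regions, so that Cela3a and Cela3b then had the most. The longest 2 of the resulting 7200 regions of the genome were then at these loci: 15163 bp with 6 peaks at Cela2a and Ctrc, from 141369407 to 141384569, and 15032 bp with 9 peaks at Cela1, from 100503931 to 100518962. The next longest, on chromosome 2 at 28409567 to 28420934, measured 11368 bp.

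The windows were then set against every window of the same size on the 19 autosomes and X, with starts at multiples of 10 kb. These windows overlap each other and are not independent, so their shares are descriptions. Of 263609 windows of 150 kb, 19 (0.00721%) held at least the 15 peaks of Cela1, and 12 (0.00455%) had as much covered sequence. Among windows of 100 kb, 3 of 263709 (0.00114%) held at least the 16 peaks of Cela2a and Ctrc and 7 (0.00265%) had as much covered. Of 263729 windows of 90 kb, 24 (0.0091%) held at least the 10 peaks of Cela3a and Cela3b and 51 (0.0193%) had as much covered. By comparison 24.4%, 18.4% and 17.1% of the windows of these sizes held any peak. The list held 2.93 peaks per Mb on these chromosomes, and the density in the windows was 34.1, 54.6 and 37.9 times as high. These fold values depend on the window sizes, which differ between the loci. Among windows of 90 kb, 1 at Cela2a and Ctrc (141340001 to 141430000) held 16 peaks. Another at Cela1 (100440001 to 100530000) held 15, against the 10 of Cela3a and Cela3b.

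Most of the windows that reached these numbers of peaks overlapped 1 of the 3 loci. Outside all 3 loci, no window of 150 kb reached the 15 peaks or the 21902 covered bp of Cela1, and no window of 100 kb reached the 16 peaks or the 20718 covered bp of Cela2a and Ctrc. The fullest of these other windows were on chromosome 19, at 58710001 to 58860000 with 14 peaks and 12384 bp covered, and at 58740001 to 58840000 with 13 peaks and 11493 bp covered. Over all windows outside the 3 loci, the most sequence that peaks covered was 14743 bp in 150 kb and 14151 bp in 100 kb. The Cela3a and Cela3b window was less extreme. Away from the loci, 7 windows of 90 kb held at least its 10 peaks and 31 its covered sequence, the fullest on chromosome 11 at 93990001 to 94080000 with 12 peaks and 12715 bp. Others with at least 10 were on chromosome 19 at 58740001 to 58830000 (11 peaks) and chromosome 6 at 51210001 to 51300000 (10 peaks). After peaks within 2 kb were joined, 4.06% of windows held at least as many regions as Cela1, 0.0808% as many as Cela2a and Ctrc and 0.00569% as many as Cela3a and Cela3b. The places of Cela1 and of Cela2a and Ctrc among windows by number thus depended on closely set peaks, that of Cela1 most.

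**Figure D3:**
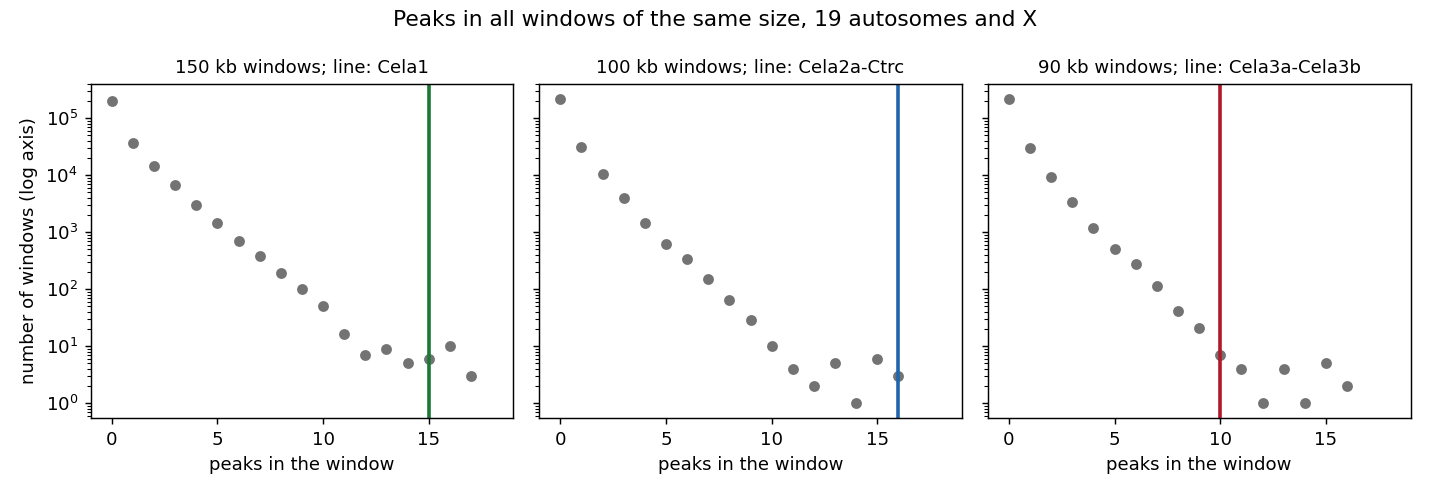
Points give the number of windows (log axis) by the number of peaks they held, for windows of 150, 100 and 90 kb with starts every 10 kb on the 19 autosomes and X. The vertical line is the count of the locus, at 15, 16 and 10 peaks. Few windows lie at or right of each line, and most of these overlap 1 of the 3 loci.

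The adjoining windows of the same size held 1 peak to the left and 0 to the right of Cela1, 0 and 2 beside Cela2a and Ctrc, and 0 and 0 beside Cela3a and Cela3b. These 3 peaks in 680 kb, in 2 of 6 adjoining windows, amount to 4.41 per Mb, against 2.93 per Mb over the 19 autosomes and X. Together the 3 windows made up 0.0129% of the sequence and held 0.53% of the peaks and 0.831% of the covered base pairs.

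The line of a peak in the deposited list was not used to choose the loci. Lines followed chromosome name and position within 94 successive runs, and no source used here says what orders the runs. The first 100 lines had a median width of 1058 bp and the last 100 lines 572 bp. Of the 41 peaks, 8 (19.5%) were in these first 100 lines, which are 1.29% of the list. Cela1 had 5 of them, at lines 31 to 35, with widths of 916, 872, 1454, 3497 and 2627 bp. Cela2a and Ctrc had 3, at lines 67 to 69, with widths of 2209, 3995 and 1109 bp. The Cela3a and Cela3b window had none, and its first peak stood at line 1276. There 5 peaks followed each other at lines 2099 to 2103.

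The 6 peaks that lay between those early ones on the genome stood at widely varying lines. At Cela1 the peak of 1126 bp at 100504888, 41 bp from its left neighbour at line 31, was at line 5631, and the narrow ones of 350 and 418 bp were at lines 712 and 713. The peak of 1896 bp at 100514398 stood at line 6997, although its neighbours on both sides were at lines 34 and 35. At Cela2a and Ctrc the peak of 2097 bp at 141377059 was at line 4720, and the next, of 469 bp, at line 169. Outside the early ones, the wide peak of 3231 bp at the right end of the Cela1 block was at line 4024. The 41 peaks came from 21 of the 94 runs, with median lines of 713, 1695.5 and 2102.5 at the loci in the order given.

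**Figure D4:**
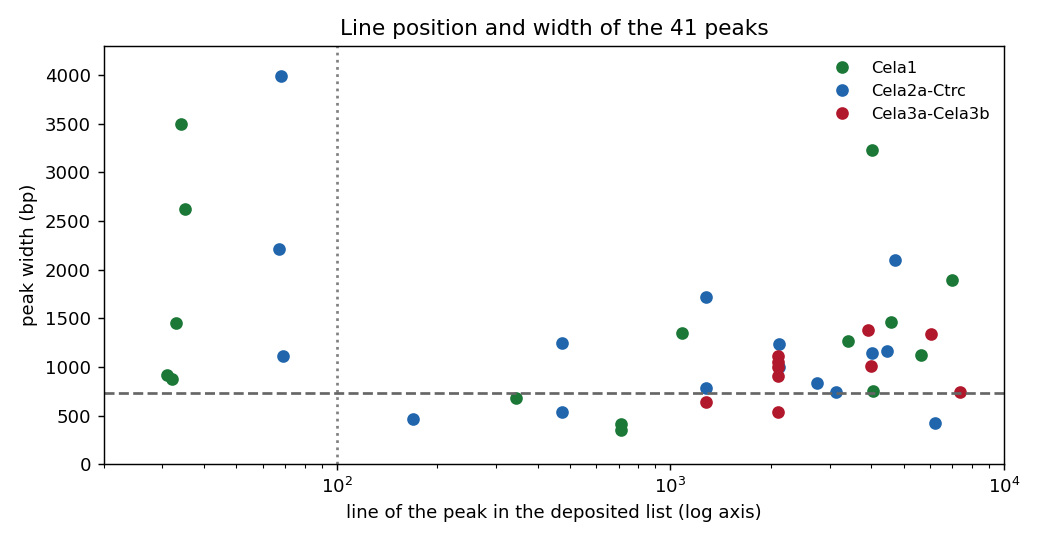
Each point is 1 of the 41 peaks, with its line in the deposited list on a log axis and its width in bp, coloured by locus. The dotted line marks line 100 and the dashed line the median width of all peaks, 728 bp. The 8 points left of the dotted line are 5 of Cela1 and 3 of Cela2a-Ctrc, and wide peaks also occur late in the list.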

How the data were processed

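Gata6 binding was measured by ChIP-seq in 4 pancreas libraries (5 or 14 weeks of age) beside 1 pooled input library. The authors deposited 1 peak list that gives positions in base pairs of mm9, per the submitters' processing notes, and no signal, score, p-value or value per library. Those notes name CASAVA 1.8 and BWA 0.5.9-r16 and give no role for either. The deposited list carries "FDR1" in its name, which may refer to a false discovery rate cut-off but is not explained. Which caller was used, and on which libraries, is not given in the sources used here. It was taken as 1 pooled result of unknown depth.

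Deposited starts were taken as 0-based, and printed positions are 1-based. Of the peaks, 4 outside the 19 autosomes and X were left out of windows and gaps. The loci were fixed windows, chosen with earlier results of these data known, as were all lists and limits. Every peak in them was named. Chromosome lengths came from GenomeInfoDb 1.38.1 (R 4.3.3). Other steps used Python 3.11.15, numpy 2.4.6, pandas 2.3.3, scipy 1.17.1, matplotlib 3.10.9 and biopython 1.88. Counting of windows, gaps and joined peaks was tested on simulated data against direct counts. Promoters came from RefSeq (GRCm38.p6), with 4 of 5 genes matched, and 9 motifs were searched on both strands in the 250 bases before each start. Forms can overlap each other. Promoters were aligned globally (match 1, mismatch -1, gap opening -2, extension -0.5). No peak sequence was read, and no comparison with gene positions was made, since no mm9 annotation or sequence was used here. No test was run.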

Additional observations from a re-analysis of the deposited data

How the results depend on the processing

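Among 54 alternative values, 31 stayed within the tolerance (1.5 times for counts, the exact 95% binomial interval for shares of windows, which treats overlapping windows as independent, and 1 SD for widths) and 23 moved. Values are given in the order Cela1, Cela2a and Ctrc, Cela3a and Cela3b. Joining edges within 500 bp left 6 peaks at Cela1 (0.421% of windows with as many, median width 3814.5 bp) and gave 0.00303% at Cela3a and Cela3b. Joining within 2 kb left 3 peaks at Cela1 (4.06%) and 6 at Cela2a and Ctrc (0.0808%), with 0.00569% at Cela3a and Cela3b. The first 3868 lines held 6 of the Cela3a and Cela3b peaks (0.0239%). Among windows with a peak the shares were 0.0296%, 0.00617% and 0.0533%, by construction higher. Windows laid end to end gave 0% for the peaks of Cela2a and Ctrc and, by covered sequence, 0%, 0% and 0.0136%. Those windows start at multiples of their size and do not include the locus windows themselves, so 0% does not mean greater rarity. Limits of 1500 bp for width left 4, 4 and 0 peaks. At Cela3a and Cela3b a gap limit of 1 kb left 1 gap and of 5 kb gave 5. Apart from the shares among windows with a peak, the cause of the changes was not tested. The wider 3859 peaks, any overlap as the rule of assignment and autosomes alone moved no value past the tolerance. No library could be left out of a pooled list, and unknown depth limits which weaker sites were listed. No paired analysis was possible because single libraries have no values in the list.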
